A study of Mus musculus with 23 samples.

Results

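The 5 genes Alas2, Bpgm, Hbb-bs, Hba-a1 and Slc4a1 were taken by name from the 24421 genes of each expression table. All 5 have a row in both tables. Their products are known from red blood cells: an enzyme of haem synthesis, an enzyme of red cell glycolysis, a beta globin, an alpha globin and an anion exchanger of the membrane. The rule uses gene names and no measured value, but the 5 genes were chosen with earlier results of these data known. The calls below are thus no test of a set named blind to the data.

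The libraries are poly-A RNA sequencing of cells that the labels call MDSCs (myeloid-derived suppressor cells) and immature myeloid cells. They were isolated from mouse peripheral blood by MACS, a magnetic separation. One series came from BALB/c mice (label "Balbc") with CT26, a colon carcinoma line, and held 12 libraries, 3 at each of days 0, 4, 8 and 11. The other came from mice of the strain labelled "C57bl" with B16, a melanoma line, and held 11 libraries, with 3 at days 0, 8 and 11 and 2 at day 4. The labels give no age, no sex and no antibody for the separation, and do not say what day 0 mice had received. The design text calls the replicates biological, without saying whether a library is 1 animal or a pool. Each strain carries 1 tumour line, so strain and tumour cannot be told apart. The tables were normalized separately and the beta globin alleles differ between the strains, so days were compared within a model only.

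Haem is built from glycine and succinyl-CoA in a pathway that starts and ends in the mitochondrion. Its first step is made by ALAS1 in most cells and by ALAS2 in developing red cells, where haem is joined to alpha and beta globin to give haemoglobin. BPGM makes 2,3-bisphosphoglycerate, which lowers the oxygen affinity of haemoglobin, and SLC4A1 (band 3) exchanges chloride for bicarbonate and anchors the cytoskeleton to the red cell membrane. Reticulocytes, the young red cells of blood, still hold RNA of these genes, though neither they nor mature mammalian red cells have a nucleus.

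The gene spans are from GENCODE on GRCm38. Alas2 lies at chrX:150547375-150570638 on the plus strand and Bpgm at chr6:34476207-34505613 on the plus strand. Hbb-bs lies at chr7:103826534-103828096 on the minus strand, Hba-a1 at chr11:32283511-32284465 on the plus strand, and Slc4a1 at chr11:102348824-102366203 on the minus strand. Each is protein coding. For the 3 genes that rose together at day 4 of B16, the 250 bases before the RefSeq start were searched on GRCm38.p6. That start lies downstream of the GENCODE start printed above, and the bases shown, 5′ to 3′ on the gene's own strand, end where the GENCODE gene begins. They are chrX:150547167-150547374 for Alas2, chr6:34476106-34476206 for Bpgm and chr7:103828097-103828178 for Hbb-bs. Searched on both strands were the motif of GATA factors (AGATAA, with A or T in its first place and A or G in its last) and the CACCC motif of KLF factors (CCNCNCCC), and capitals mark letters that match the first.
Alas2: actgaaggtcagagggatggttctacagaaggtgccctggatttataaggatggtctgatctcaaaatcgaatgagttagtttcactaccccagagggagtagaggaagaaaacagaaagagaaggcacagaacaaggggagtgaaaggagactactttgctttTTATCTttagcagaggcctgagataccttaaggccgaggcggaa
Bpgm: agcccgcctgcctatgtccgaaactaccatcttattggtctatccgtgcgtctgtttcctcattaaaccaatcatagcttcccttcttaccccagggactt
Hbb-bs: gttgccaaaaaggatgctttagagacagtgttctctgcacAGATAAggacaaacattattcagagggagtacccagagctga
The 250 bases of Alas2 held 1 GATA match, whose first base is at -86 counted from the RefSeq start, and 4 CACCC matches that partly overlap each other. Hbb-bs held 1 GATA match at -210 and 1 CACCC match at -93. Bpgm held 1 CACCC match and no GATA match. All CACCC matches lie inside the GENCODE spans and so are not in the bases shown. Among 32851 mouse promoters of this length 26.5% held a GATA match, 45.9% a CACCC match and 8.19% both. A match describes letters and is no evidence of binding.

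The values are the authors' normalized counts, which are reads divided by a single factor for each library. Library totals ran from 10.7e6 to 14.27e6 in CT26 and from 12.39e6 to 15.03e6 in B16. In B16 the day 0 libraries stood apart in the share of Rn45s, a ribosomal RNA precursor, with 2.57 to 3.10% against at most 1.05% at later days. Comparisons with B16 day 0 carry that difference. Its part in them was not tested beyond a scaling of libraries to the same total without Rn45s. Days were compared with limma on log2(value + 1), with Benjamini-Hochberg adjustment over all genes tested and a threshold of 0.05. A mean of at least 5 was required, which Alas2 and Bpgm passed in both models and Hbb-bs in B16 alone. Slc4a1 and Hba-a1 did not pass in either model.

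Alas2, the red cell enzyme for the first step of haem synthesis, was the member with the widest course in B16. Its course differed in shape between the models. In B16 it stood about 12.6-fold higher at day 4 than at day 0 and was at or under its starting level at day 8. The B16 libraries held 37.1, 65.6 and 45.3 normalized counts at day 0, 649 and 594 at day 4, 32.2, 19.2 and 42.3 at day 8, and 83.6, 85.9 and 84.4 at day 11. Both day 4 libraries lay above all 9 others, and the day 11 libraries lay above those of days 0 and 8 without overlap. The means were 49.3 ± 14.7 (SD, n = 3), 621 ± 38.9 (n = 2), 31.2 ± 11.6 (n = 3) and 84.6 ± 1.18 (n = 3). In bulk RNA, fewer cells of a type and less RNA per cell cannot be told apart, and this holds for every value here.

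In CT26 Alas2 fell at day 4. The CT26 libraries held 173, 177 and 137 normalized counts at day 0, 81.2, 63.4 and 61.7 at day 4, 152, 132 and 84.7 at day 8, and 89.3, 102 and 112 at day 11. The day 4 libraries lay below all others, and day 8 spread widely enough to overlap both day 0 and day 11. The mean at day 0 was 2.36-fold that at day 4, at 162 ± 21.8 (SD, n = 3) against 68.8 ± 10.8 (n = 3). Markers of other cells moved at the same day. All 7 B cell markers were called lower at day 4, with a median log2 change of -1.46, and their sums ran from 2340 to 2498 normalized counts at day 0, 821 to 939 at day 4, 1012 to 1580 at day 8 and 259 to 564 at day 11. All 5 eosinophil markers tested were lower at day 4 as well, where 4.46% of all genes were called lower. The share of Rn45s was 0.636 to 0.770% at day 0 and 0.343 to 0.416% at day 4. The part of these in the fall of Alas2 was not tested beyond a scaling of libraries to the same total without Rn45s.

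**Figure D1:**
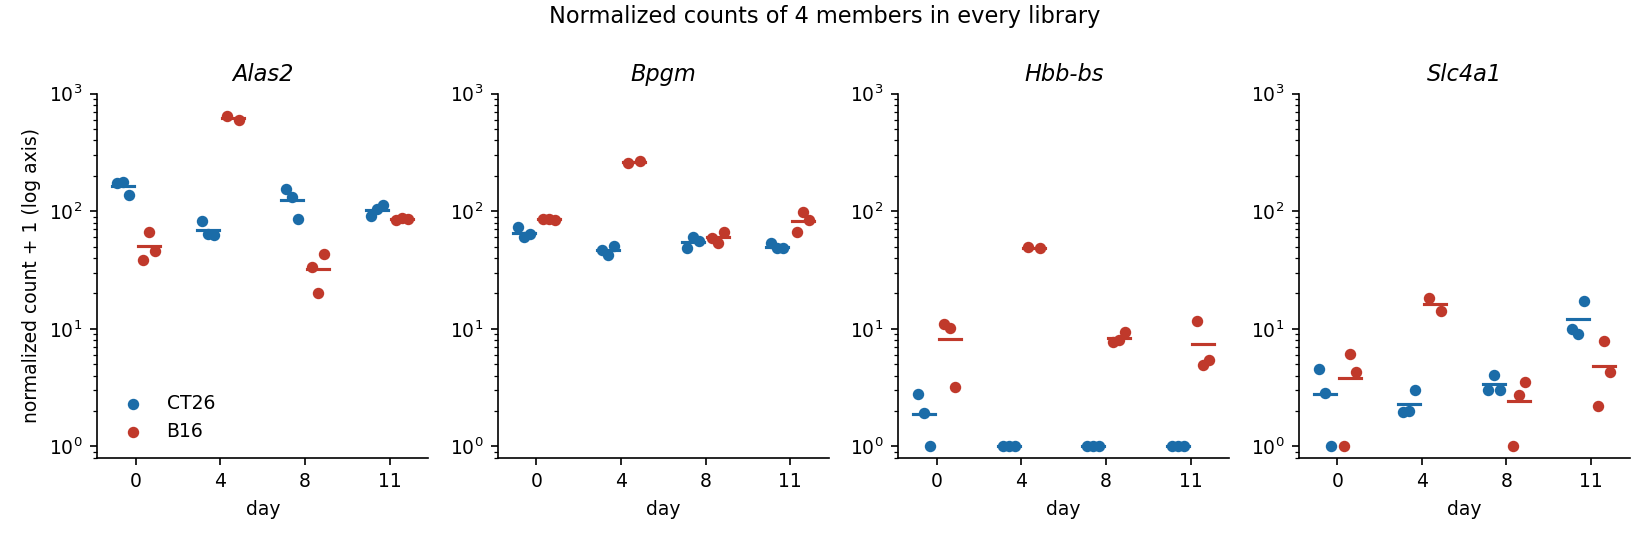
Normalized counts plus 1 (log axis) of Alas2, Bpgm, Hbb-bs and Slc4a1 by day in each library (points) with the day mean (bar), for CT26 and B16. Both B16 day 4 libraries lie above all other B16 libraries for each of the 4 genes, at 649 and 594 for Alas2, while CT26 Alas2 is lowest at day 4.

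The limma test called the day 4 rise of Alas2 in B16, with a log2 change of 3.67 ± 0.29 (SE) and an adjusted p of 5.1e-06. It also called the fall from day 4 to day 8, at -4.34 ± 0.29 (adjusted p = 2.7e-06), and the rise from day 8 to day 11, at 1.48 ± 0.26 (adjusted p = 0.00096). Day 8 was lower than day 0 by a narrow margin, at -0.67 ± 0.26 (adjusted p = 0.044), and the call was lost in 16 of 22 other settings. These include edgeR and the removal of any library but day 0 replicate 1 and day 8 replicate 3 (adjusted p from 0.054 to 0.20). Day 11 was higher than day 0, at 0.81 ± 0.26 (adjusted p = 0.024), a call lost in 6 settings. It was lost without day 0 replicate 1 (adjusted p = 0.098) or 3 (0.055), and without each of the 3 day 11 libraries in turn (0.057 to 0.061). The other setting scaled libraries to the same total without Rn45s (limma, 0.64, adjusted p = 0.057).

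In CT26 Alas2 fell by 1.23 on the log2 scale at day 4 (SE 0.19, adjusted p = 0.00055) and was lower at day 11, at -0.68 ± 0.19 (adjusted p = 0.0077). The day 4 change kept its size in edgeR on recovered reads, at -1.13, but not its call (adjusted p = 0.14), where day 4 was left with 1 library. Day 8 was not called against day 0, at -0.43 ± 0.19 (adjusted p = 0.11), but was without day 8 replicate 1 (adjusted p = 0.043). The rise from day 4 to day 8, at 0.80 ± 0.19 (adjusted p = 0.0093), was lost without day 8 replicate 1 (adjusted p = 0.063), without day 8 replicate 2 (adjusted p = 0.051) and in both count tests.

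The whole Alas2 span lies within that of Apex2, a DNA repair gene on the opposite strand, and 11.5% of the 50-base stretches of Alas2 transcripts also occur elsewhere, mostly in Apex2. Whether reads were counted by strand is not given in the sources used here. Apex2 itself stood at 4.42 to 7.18 normalized counts at day 0 of B16, 15.6 and 15.7 at day 4, 9.33 to 16.9 at day 8 and 10.8 to 13.8 at day 11. Alas2 stood at 649 and 594 at day 4 of B16. The part of reads shared with Apex2 in the Alas2 values was not tested.

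The globins were scarce for cells taken from blood. Hba-a1, the adult alpha globin, was listed at 0 in all 23 libraries. A count of 0 allows up to 3 reads, or 2.54 to 3.71 normalized counts in a B16 library, for counting error only. Among the globins 12 rows were present and 7 of them were listed at 0 throughout, and these include the second alpha globin Hba-a2 and the beta globins Hbb-bt, Hbb-b1 and Hbb-b2. Hba-a1 shares 72.3% of its 50-base stretches with other genes, chiefly Hba-a2, and Hbb-bs shares 53.2%, chiefly with Hbb-bt. How the authors treated reads that match several genes is not given in the sources used here, so a value of 0 for these genes is uncertain and their part in it was not tested.

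Hbb-bs, an adult beta globin, was the globin with the highest values in B16 and rose there at day 4. The B16 libraries held 9.91, 9.23 and 2.21 normalized counts at day 0, 48.6 and 47.1 at day 4, 6.79, 6.98 and 8.46 at day 8, and 10.8, 3.95 and 4.38 at day 11. Both day 4 libraries exceeded all others, and the other 3 days overlapped. The day 4 mean was 6.73-fold that of day 0, at 47.9 ± 1.05 (SD, n = 2) against 7.11 ± 4.26 (n = 3). The limma log2 change was 2.78 ± 0.56 (adjusted p = 0.0022), and the fall to day 8 was -2.54 ± 0.56 (adjusted p = 0.0053). Days 8 and 11 were not called against day 0, with log2 changes of 0.24 and -0.06.

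In CT26 Hbb-bs was listed at 1.77, 0.91 and 0 at day 0 and at 0 in the 9 later libraries, values of at most a few reads that allow no fold. BALB/c mice carry another beta globin haplotype than the reference strain on which mm10 is built, so the low CT26 level and the strain cannot be told apart. Hbq1b, a theta globin, was the only other globin row to pass the filter, in B16. It stood at 0, 0 and 2.21 normalized counts at day 0, 22.0 and 11.3 at day 4, 2.55, 9.60 and 9.30 at day 8, and 7.17, 6.91 and 5.48 at day 11. It passed through its high day 4 values, so no test of it is given. Unlike those of Hbb-bs, its libraries of days 8 and 11 all lay above those of day 0.

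Bpgm, the enzyme for 2,3-bisphosphoglycerate, rose at day 4 in B16 as well. Its values were 84.2, 85.1 and 83.9 normalized counts at day 0, 257 and 266 at day 4, 58.5, 52.4 and 66.0 at day 8, and 65.7, 97.8 and 83.3 at day 11. Day 0 was the tightest group, day 4 stood clear of the rest, and day 8 lay below day 0 without overlap. The day 4 mean was 3.10-fold that of day 0, and limma gave 1.62 ± 0.18 (adjusted p = 4.0e-05). The fall to day 8 was -2.14 ± 0.18 (adjusted p = 8.2e-06). Day 8 was lower than day 0, at -0.52 ± 0.16 (adjusted p = 0.015), a call lost without day 8 replicate 2 (adjusted p = 0.064) and with libraries scaled to the same total. The rise to day 11, at 0.46 ± 0.16 (adjusted p = 0.039), was lost in 12 settings, among them without day 4 replicate 1, day 8 replicate 1 or 2, or day 11 replicate 2 or 3 (adjusted p from 0.050 to 0.15). Day 11 was not called against day 0, at -0.06 ± 0.16.

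In CT26 Bpgm moved little. It stood at 72.5, 59.2 and 62.7 normalized counts at day 0, 45.9, 41.3 and 49.7 at day 4, 48.0, 59.3 and 55.1 at day 8, and 52.3, 47.2 and 47.1 at day 11. All later values but 1 lay below the lowest of day 0, yet limma called none of the comparisons. The nearest were day 11 against day 0, at -0.40 ± 0.17 (adjusted p = 0.059), and day 4 against day 0, at -0.50 ± 0.17 (adjusted p = 0.067). Without day 11 replicate 1 both were called lower (adjusted p = 0.046 and 0.038), as they were with libraries scaled to the same total.

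Slc4a1, the band 3 anion exchanger, had few reads, and its mean was under 5 in both models, so its tests come from the fit with no filter and were added after its values were seen. In B16 it stood at 0, 5.13 and 3.31 normalized counts at day 0, 17.4 and 13.1 at day 4, 0, 1.75 and 2.54 at day 8, and 1.19, 6.91 and 3.29 at day 11. Day 4 again lay above all other libraries. The log2 change at day 4 was 2.44 ± 0.82 (limma, adjusted p = 0.049), a call lost in 16 of 20 other settings, including without either day 4 library. The fall to day 8 was -2.92 ± 0.82 (adjusted p = 0.028), lost in 6 of 19, including without either day 4 library and without day 8 replicate 1 or 2.

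In CT26 Slc4a1 followed another course, being highest at day 11. Its values were 3.54, 1.82 and 0 normalized counts at day 0, 0.96, 1.01 and 1.99 at day 4, 2.00, 3.07 and 2.04 at day 8, and 9.02, 8.05 and 16.1 at day 11. The 3 day 11 libraries lay above the other 9. Limma gave 2.31 ± 0.53 against day 0 (adjusted p = 0.0025), lost in 3 of 21 other settings (both count tests and only the 2 days compared), and 1.80 ± 0.53 against day 8 (adjusted p = 0.034), lost in 10 of 20, including without any day 8 library or day 11 replicate 3. At day 11 of CT26, Alas2 was thus lower than at day 0 while Slc4a1 was higher.

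Compared per kilobase of exon, at day 4 of B16 Alas2 had the highest level, at 258 ± 16.2 normalized counts per kb (SD, n = 2). Bpgm followed at 72.9 ± 1.85, Hbb-bs at 62.4 ± 1.37 and Slc4a1 at 3.12 ± 0.63. At day 0 of B16 the order was Bpgm at 23.5 ± 0.18, Alas2 at 20.5 ± 6.11, Hbb-bs at 9.26 ± 5.55 and Slc4a1 at 0.58 ± 0.53 (n = 3), and the first pair did not differ beyond its spread. At day 0 of CT26 Alas2 stood at 67.6 ± 9.08 and Bpgm at 18.1 ± 1.93 per kb.

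Counted over the members, all 3 tested in B16 were called higher at day 4 against day 0, where 20.3% of all genes were called higher and 15.5% lower. All 3 were called lower from day 4 to day 8, where 14.1% of all genes were lower and 12.7% higher. In B16, 2 of 3 were lower at day 8 against day 0 (27.3% lower, 28.6% higher among all genes), 1 of 3 was higher at day 11 against day 0 (23.9% higher, 21.8% lower), and 2 of 3 were higher at day 11 against day 8 (18.7% higher, 17.4% lower). The median log2 change of the 3 members at day 4 was 2.78, beside 0.01 over all 11930 genes tested. With no filter, 14.2% of genes were higher at day 4 and 9.47% fell to day 8, which is the background for Slc4a1.

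In CT26, 1 of 2 tested members was called lower at day 4 against day 0, where 4.46% of all genes were lower and 6.4% higher, and none at day 8 against day 0 (11.8% lower, 15.1% higher; 1 with an unadjusted p under 0.05, none in edgeR or DESeq2). At day 11 against day 0, 1 of 2 was lower, where 24% of all genes were lower and 26.3% higher. From day 4 to day 8, 1 of 2 was higher (7.42% higher, 5.96% lower among all genes), and from day 8 to day 11 neither was called (10.9% higher, 9.94% lower; none at an unadjusted p under 0.05, none in edgeR or DESeq2). With no filter, 17.8% of genes were higher at day 11 against day 0 and 6.54% against day 8, the background for Slc4a1. Some difference among the 4 days was called for Alas2 in CT26, where 49.8% of all genes had such a call, and for Alas2, Bpgm and Hbb-bs in B16, where 64.6% had. The comparisons with day 0 share the day 0 libraries.

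**Figure D2:**
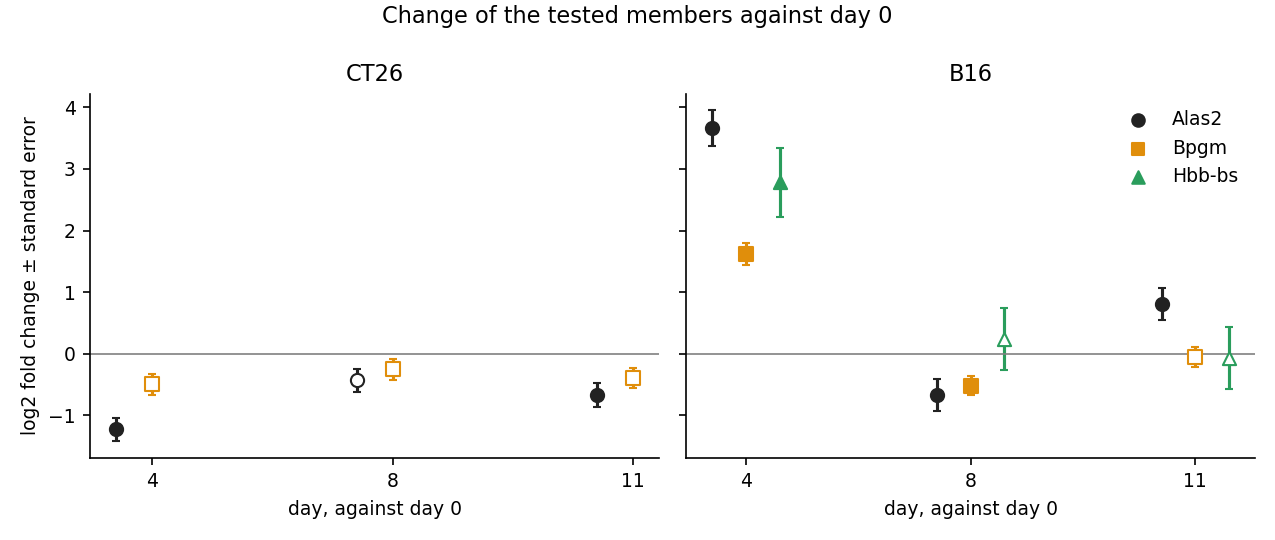
Log2 change against day 0 with its standard error for the tested members, by day, in CT26 and B16 (filled: called, open: not called). In B16 the 3 members are raised at day 4, Alas2 by 3.67, and lie between -0.67 and 0.81 at days 8 and 11, while Alas2 in CT26 is at -1.23 at day 4.

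The remaining haem synthesis enzymes were called at day 4 of B16 about as often as all genes. Of 8 tested 2 rose, 1 fell and 5 were not called, with a median log2 change of 0.01, beside 20.3% higher and 15.5% lower among all genes. Alas1, the form of the first enzyme used in most cells, rose by 0.85 ± 0.07 (limma, adjusted p = 5.9e-06), from 1678, 1574 and 1628 normalized counts to 2787 and 3089. Alas1 then fell by 0.77 to day 8 and rose by 0.28 to day 11, and so it was raised at the same day as Alas2 but by a smaller ratio. Fech, which inserts iron in the last step to haem, rose by 0.59 ± 0.18 (limma, adjusted p = 0.025). Ppox, a late step, fell by 0.35 ± 0.07 (adjusted p = 0.0022). Without either day 4 library, or day 0 replicate 1 or 3, 1 of the 8 rose in place of 2. In CT26 limma called none of the 8 at day 4, with a median of -0.06, none had an unadjusted p under 0.05, and edgeR and DESeq2 called none. In CT26 these count tests rest on 1 day 4 library, so a missing call in them shows no absence of change, here and in the lists that follow. DESeq2 gave no adjusted p at CT26 day 4 for 5 of these 8 genes, nor for 3 of the haem breakdown, 5 of the membrane and 2 of the glycolysis genes.

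Among the 12 iron and haem transport genes of B16 at day 4, 1 rose and 3 fell, with a median of 0.03, again beside 20.3% and 15.5% of all genes. The ferritin heavy chain Fth1 rose by 0.34 ± 0.12 (adjusted p = 0.045). The mitochondrial iron importer Slc25a37 fell by 0.37, Slc25a39 by 0.36 and the ferritin light chain Ftl1 by 0.32. Of 6 haem breakdown and scavenging genes 4 rose, with a median of 0.33, among them Hmox1, the inducible haem oxygenase, at 0.39 ± 0.07 (adjusted p = 0.0015). In CT26 at day 4 limma called none of 7 breakdown genes (1 with an unadjusted p under 0.05, none in edgeR or DESeq2, and 2 risen without day 11 replicate 1), but at day 11 against day 0 4 of 7 rose, with Hmox1 at 1.80 ± 0.19 and the haemoglobin receptor Cd163 at 5.72 ± 0.69. Day 11 replicate 1 stood apart, with 395 normalized counts of Cd163 against 38.0 and 67.8 and with 7961 of Hmox1 against 3642 and 3954. Without it the changes were 4.74 and 1.44, both still called. In CT26 that rise came with 7 of 8 red pulp macrophage markers, a list that also holds Hmox1, at a median of 6.39. Their part in it was not tested. Of the 10 markers with a row, 3 were at 0 in every day 4 library. The filter takes the mean over all days, so genes near 0 at day 0 can pass through high late values. The count of 7 of 8 is thus no test. At day 11 against day 0 of CT26, 26.3% of all genes were higher and 24% lower.

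Genes named for the red cell membrane rose in B16 at day 4 in 5 of 6 cases, with a median log2 change of 1.97, but in 1 case without day 4 replicate 1. Among all genes at day 4 against day 0, 20.3% rose and 15.5% fell in B16, and 6.4% and 4.46% in CT26. Aqp1, a water channel, rose by 2.94 ± 0.53. Ank1, the ankyrin that binds band 3, was not called at 0.22 ± 0.48. Among 9 red cell transcription factors and the erythropoietin receptor, 5 rose and 3 fell, with a median of 1.55, and 3 rose without day 4 replicate 1. Gata1 rose by 3.13 ± 0.57 (adjusted p = 0.0011) and Tal1 by 2.32 ± 0.31, and both are also used by platelet precursors. In CT26 at day 4 limma called none of 6 membrane genes (1 with an unadjusted p under 0.05, none in edgeR or DESeq2) and 1 of 8 factors, Gata1 at -0.93 ± 0.25 (adjusted p = 0.024). The Gata1 call was lost in limma without day 4 replicate 1 (adjusted p = 0.12) or 2 (0.066). It was also lost without day 0 replicate 1 (0.086) or 3 (0.082). With 1 day 4 library, edgeR gave -1.25 (adjusted p = 0.16), and DESeq2 gave -1.22 and no adjusted p.

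Gata1 and the members parted after day 4. In B16 Gata1 stood at 16.1, 10.3 and 51.9 normalized counts at day 0, 344 and 104 at day 4, 153, 236 and 279 at day 8, and 81.2, 83.0 and 74.5 at day 11. It was still raised at day 8 against day 0, at 3.32 ± 0.51 (limma, adjusted p = 0.00015), where Alas2 was not higher. In CT26 Gata1 fell further, to -3.84 ± 0.25 at day 11. Gata1 is also a factor of eosinophils, whose markers moved with it in CT26 but at day 8 alone in B16. In CT26 all 5 eosinophil markers tested fell at day 4 (median -0.93) and at day 11 (median -3.72). Among all genes 4.46% and 24% fell there. In B16 all 4 tested rose at day 8 (median 1.53), where 28.6% of all genes rose. At days 4 and 11 of B16, 1 of the 4 rose and 1 fell (medians 0.14 and 0.17). Gata1 was raised at both days, by 3.13 and 1.89. Their part in the values of Gata1 was not tested.

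Of 15 genes of reticulocyte maturation and antioxidant defence tested in B16 at day 4, 8 rose and 3 fell, with a median of 0.42. Among all genes 20.3% rose and 15.5% fell. Without day 4 replicate 1, 4 of the 15 rose. Catalase (Cat) rose by 3.07 ± 0.43 and Ube2o, which in mice clears ribosomes from reticulocytes, by 2.67 ± 0.37. Among 8 glycolysis genes other than Bpgm, 3 rose and none fell, with a median of 0.16, beside 20.3% and 15.5% of all genes. Of these Pgam2 reached 1.15 ± 0.30, Hk1 1.13 ± 0.14 and Gapdh 0.26 ± 0.06. Of 8 proliferation genes 1 rose, beside the same shares. Over all genes of CT26 at day 4, 6.4% rose and 4.46% fell. In CT26 at day 4, 1 of 16 reticulocyte genes rose and 1 fell, and limma called none of 8 glycolysis genes (none with an unadjusted p under 0.05, none in edgeR or DESeq2).

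**Figure D3:**
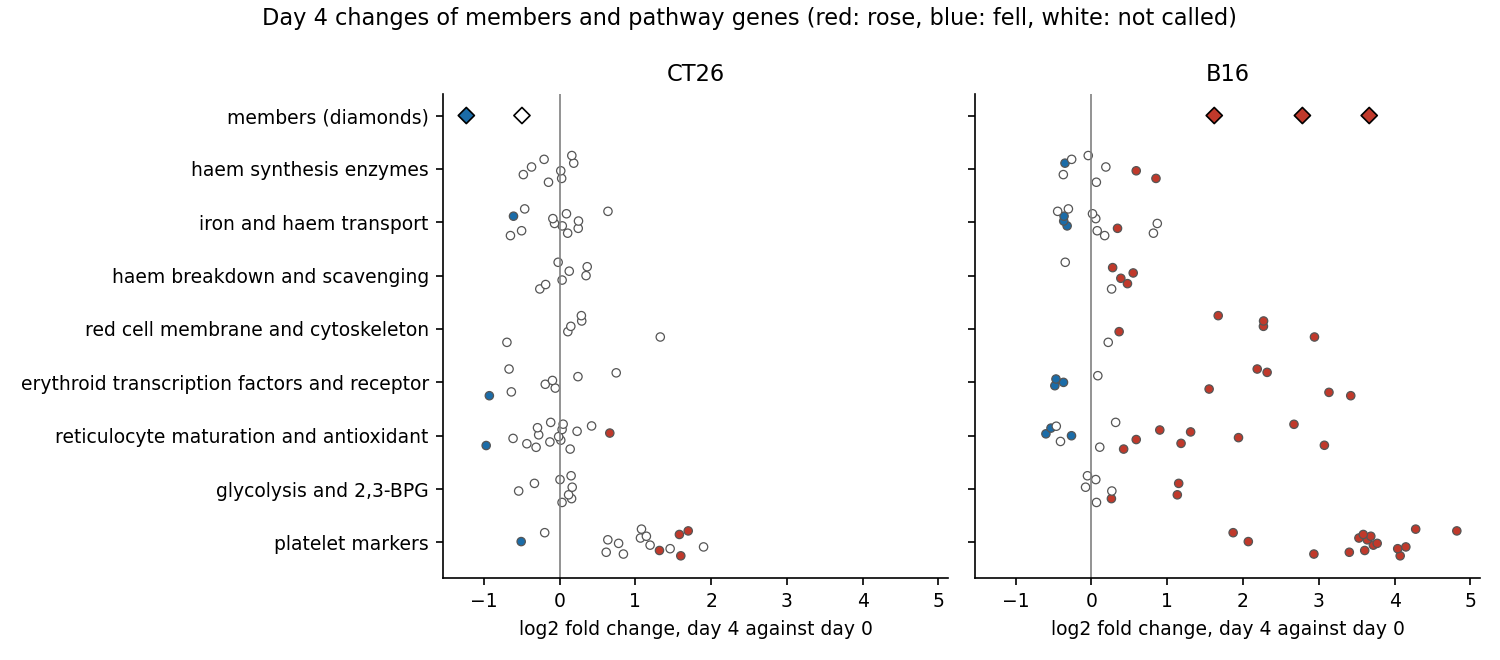
Log2 change at day 4 against day 0 for each tested gene of the members (diamonds) and of 8 lists, in CT26 and B16, coloured by call. In B16 the 3 members lie from 1.62 to 3.67 and the platelet markers have a median of 3.66, while the haem synthesis enzymes centre at 0.01.

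Several markers that define red cells were at or near 0. Klf1, the main red cell transcription factor, and Rhag, Kel and Car1 reached at most 3.31 normalized counts in any of the 23 libraries. The 5 genes are called here by their names, and the part of red cells in their levels was not tested.

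Markers of platelets moved in the same B16 libraries. All 16 were called higher at day 4 against day 0, with a median log2 change of 3.66. All 16 were still higher at day 8, with a median of 3.43, and 15 at day 11, with a median of 2.44, whereas Bpgm and Hbb-bs were not higher at either day. Among all genes 20.3%, 28.6% and 23.9% were higher at days 4, 8 and 11 against day 0. The summed level of the 16 ran from 3299 to 11930 normalized counts at day 0, from 38160 to 111065 at day 4, from 32117 to 74834 at day 8 and from 24429 to 29490 at day 11. Limma called none of the 16 between day 4 and day 8 (none with an unadjusted p under 0.05, none in edgeR or DESeq2), the step at which all 3 members fell. The 12 neutrophil markers summed to between 645060 and 990944 over all B16 libraries, and 5 of them rose and 2 fell at day 4. In CT26 at day 4, 4 platelet markers rose and 1 fell, beside 6.4% and 4.46% of all genes. The platelet sums were 1504 to 5254 there against 1971 to 2032 at day 0. The 4 became 13 without day 4 replicate 1, 0 without day 4 replicate 3 and 0 in edgeR. The part of these cells in the results was not tested.

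**Figure D4:**
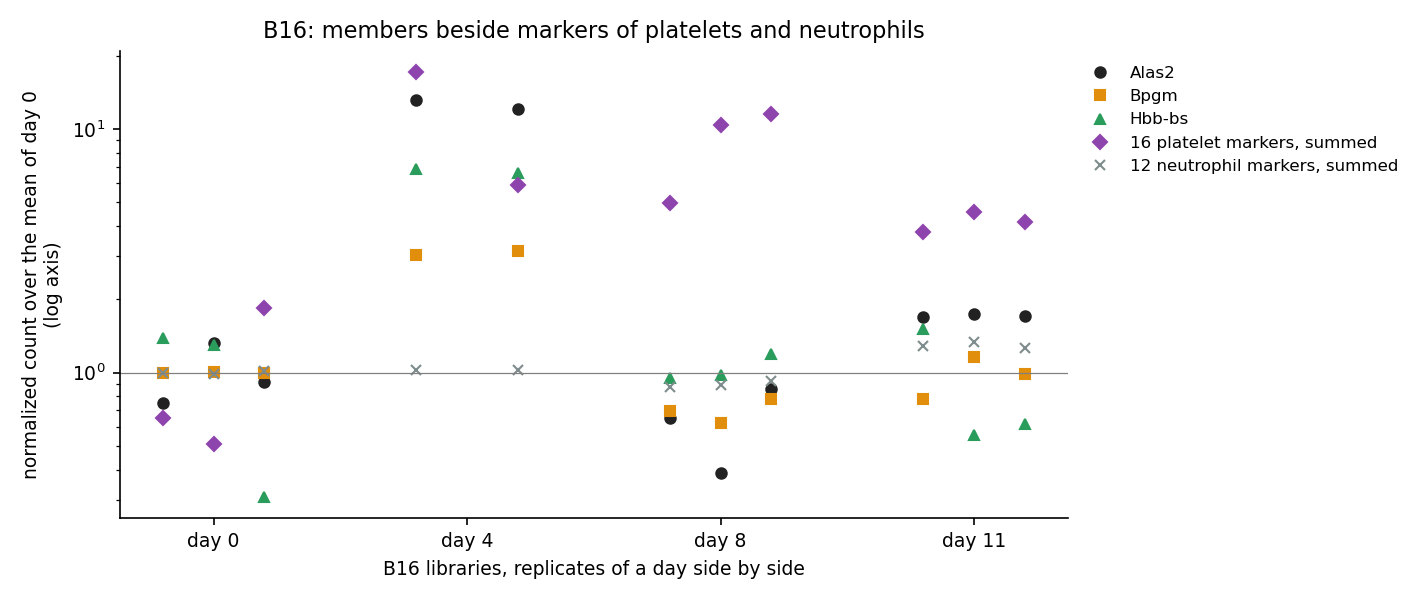
Level in each B16 library over the mean of day 0 (log axis) for Alas2, Bpgm, Hbb-bs and the sums of 16 platelet and 12 neutrophil markers. At day 8 the platelet sum is still at 32117 to 74834 normalized counts while the 3 members are near or below their day 0 level.

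Between both B16 day 4 libraries the platelet markers differed while 3 members lay close to a ratio of 1. Replicate 1 held 1.58 to 3.61 times the level of replicate 3 for the 16 platelet markers, with a median of 2.95. The ratio was 1.09 for Alas2, 0.965 for Bpgm and 1.03 for Hbb-bs, and 1.33 for Slc4a1 with its few reads. It had a median of 0.924 over the 8 haem synthesis enzymes, 1.82 over the 9 transcription factors and the receptor, and 1.00 over all 11924 genes tested with a value in replicate 3. These are ratios of 2 libraries and carry no test.

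**Figure D5:**
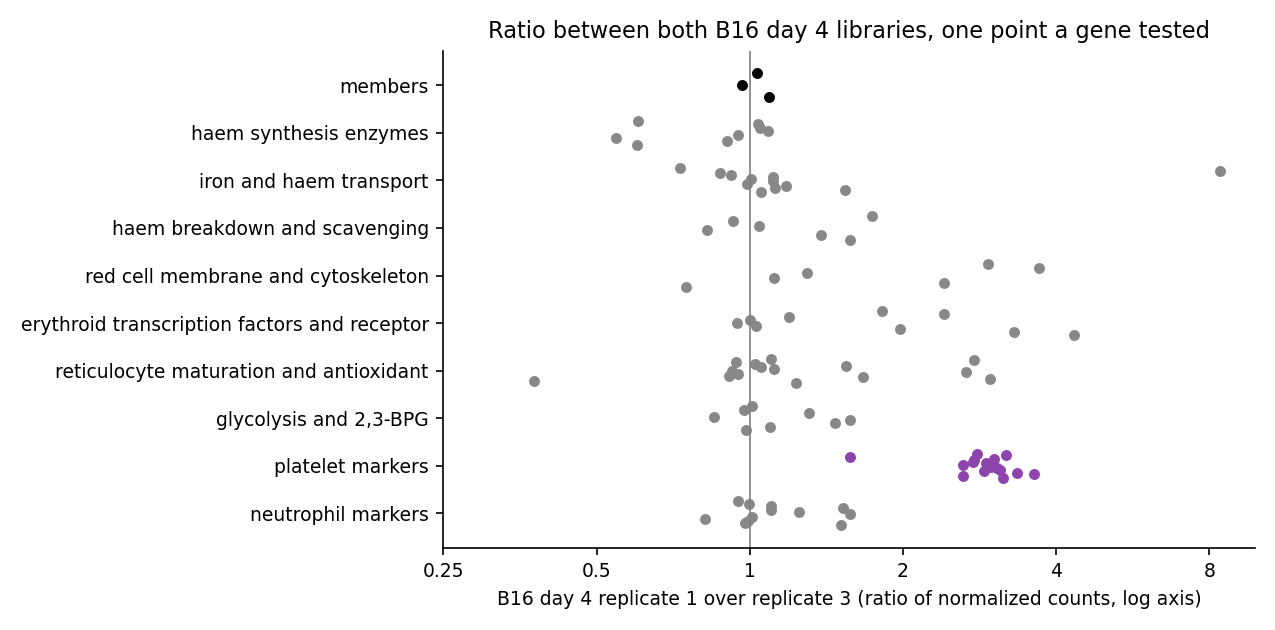
Ratio of normalized counts in B16 day 4 replicate 1 over replicate 3 (log axis) for each tested gene of the members and of 9 lists. The 3 members lie from 0.965 to 1.09 and the 16 platelet markers from 1.58 to 3.61.

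Across the 11 B16 libraries Alas2 and Bpgm had a Pearson r of 0.95 on log2(value + 1), and of 0.69 over the 9 libraries left without day 4. For Alas2 and Hbb-bs the r was 0.79 with and -0.13 without day 4, so it rests on the 2 day 4 libraries. In CT26, over 12 libraries, the r of Alas2 and Bpgm was 0.69. These libraries share day and scaling, and the r values are descriptions.

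The genes outside the 5 whose course in B16 was most like that of Alas2 were Tmem50b (r = 0.93), Tgm1, Plcl2, Alas1 (r = 0.91) and Maea, over 11 libraries. For Bpgm they were Atg12 (r = 0.94), Skap2, Vav1, Mobp and Mgp. For Hbb-bs they included Gsn (r = 0.94), Cbfb, 5031414D18Rik and Cpt2. In CT26, over 12 libraries, Mapk11 came first for Alas2 (r = 0.89), Hsd17b10 for Bpgm (r = 0.91) and Slc25a3 for Slc4a1 (r = 0.96).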

How the data were processed

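Poly-A RNA sequencing libraries of blood myeloid cells were analysed from tables of normalized counts deposited by the authors. Per the file headers the values are normalized counts (signal: counts divided by a factor per library), and each tumour model has its own table. The submitters' processing notes list DESeq2 1.6.3, HTSeq 0.6.1p1, TopHat2 2.0.10 and cutadapt beside build mm10, with no role for each. In 19 libraries all values were whole reads within a tolerance of 0.001. In the other 4, all of CT26 (replicate 3 of day 0, both replicate 2 and replicate 3 of day 4, replicate 1 of day 8), the step was too near 1 to recover reads safely.

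The main test was limma 3.58.1 (R 4.3.3) with a trend on log2(value + 1), 2-sided, 1 fit per model with a term for each day, after removal of genes whose mean was under 5 (leaving 11373 for CT26 and 11930 for B16). Fold changes on that scale understate those of low genes. edgeR 4.0.16 and DESeq2 1.42.0 on recovered reads were alternatives. The script was tested on simulated data. Replicate numbers were checked for pairing and did not pair the libraries, with correlations of deviations from -0.16 to 0.23 for the same number. The p-values weigh a difference between days against the spread among libraries of the same day. As a library may be 1 animal or a pool, the spread between animals is not known.

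The 5 genes and all lists were chosen with earlier results of these data known. Named genes are the 5, up to 4 called members of a list in a comparison by size of change, and a fixed set (Gata1, Klf1, Alas1, Fech, Hba-a2, Hbb-bt, Ank1 and Hmox1 among them), with the 5 most alike genes per member. Some genes that this rule names are not reported here. Fth1, Gapdh, Tal1 and the values of other markers named as near 0 were chosen for description. Genes of the lists with no row (Flvcr1, Ahsp, Epb42 and others) are not analysed here.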

Additional observations from a re-analysis of the deposited data

Results flagged for a closer look

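Alas2 moved in opposite directions in the models at day 4, with log2 changes against day 0 of -1.23 in CT26 and 3.67 in B16, and every library of each day 4 group lay on its own side of its day 0 libraries. Bpgm did likewise at day 4, with -0.50 in CT26 (not called) and 1.62 in B16. At day 11 Alas2 was at -0.68 in CT26 and 0.81 in B16. These differences between the models were not tested, since the tables were normalized separately and strain and tumour cannot be told apart.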

How the results depend on the processing

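The day 4 rise in B16 and the fall to day 8 kept all 3 members called in most settings. With a minimum mean of 20, 2 members were left to call, and with no filter 4 were called. In those 2 comparisons, leaving out a library gave 3 to 4. In CT26 the count at day 4 against day 0 was 1, with 2 when libraries were scaled to the same total (also without Rn45s, a setting added after the data were seen), 0 in edgeR, and 1 to 2 on leaving out a library. At day 8 against day 0 it was 0, 1 with the same total (with and without Rn45s), and 0 to 1 on leaving out a library. At day 11 against day 0 it was 1, with 2 under no filter, the same total (with and without Rn45s) and TMM scaling, and 1 to 2 on leaving out a library. At day 8 against day 4 it was 1, with 0 in edgeR and DESeq2 and 0 to 1 on leaving out a library. At day 11 against day 8 it was 0, with 1 under no filter. In B16 at day 8 against day 0 it was 2, with 1 under no filter, the same total without Rn45s, TMM scaling, the replicate block, only the 2 days compared and edgeR, 0 with the same total, and 0 to 2 on leaving out a library. At day 11 against day 0 it was 1, with 0 with the same total without Rn45s and 0 to 1 on leaving out a library. At day 11 against day 8 it was 2, with 1 under no filter, the same total (with and without Rn45s), TMM scaling, the replicate block, only the 2 days compared and DESeq2, and 1 to 2 on leaving out a library. The cause was not tested.

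The replicate block, which treats the replicate number as a pairing, lost 3 calls of members: Alas2 in B16 at day 8 against day 0 (adjusted p = 0.067), Bpgm in B16 at day 11 against day 8 (adjusted p = 0.056) and Slc4a1 in CT26 at day 11 against day 8 (adjusted p = 0.050). It changed no other call of a member in the comparisons run. The numbers do not pair the libraries. Changes that were not called changed sign: Hbb-bs in B16 at day 8 against day 0 was -0.33 without day 0 replicate 3, in a range up to 0.55 on leaving out a library. Bpgm in B16 at day 11 against day 0 was 0.10 without day 11 replicate 1, in a range from -0.19. Hbb-bs at that comparison was 0.10 to 0.25 without day 0 replicate 1 or 2 or day 11 replicate 2 or 3 (0.25, 0.20, 0.16 and 0.10), in a range from -0.64.

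Over all genes, calls in CT26 at day 4 numbered 1235, with 74 in edgeR, 220 in DESeq2, 2139 with only the 2 days, and 626 to 2419 on leaving out a library. At day 8 against day 4 they numbered 1522, with 288 in edgeR, 338 in DESeq2 and 2597 with only the 2 days, at day 8 against day 0 3056 with 1418 and 1267 in those tools, and at day 11 against day 8 2375 with 996 and 814 and 1412 with only the 2 days. At day 11 against day 0 they numbered 5721, with 3385 in DESeq2. In B16 at day 4 they numbered 4276, with 2782 on leaving out a library. DESeq2 gave no adjusted p for Alas2 and Bpgm in CT26 at day 4. Scaling to the same total, with or without Rn45s, moved the median of all genes most in CT26 at day 11 against day 0, by -0.28. It took the share of calls that were higher from 58.9 to 37.8%, 56 to 29.5% and 52.3 to 26.9% in CT26 at days 4, 8 and 11 against day 0, from 55.5 to 40.2% and 52.4 to 32.7% in its later steps, and in B16 from 51.2 to 61.3% at day 8, 52.4 to 36.5% at day 11, 47.3 to 74.9% from day 4 to 8 and 51.8 to 18.4% from day 8 to 11. The same total without Rn45s took it from 56.7 to 46% in B16 at day 4, and TMM from 52.4 to 37.7% in CT26 from day 8 to 11. Few reads limit Hbb-bs, Slc4a1 and Hba-a1.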
